A study of Homo sapiens with 6 samples.

Results

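The genes described here encode the core machinery of macroautophagy in the human monocytic leukemia line THP-1. They were chosen by name, as 36 genes that build the autophagosome, select its cargo or control its genes, and all 36 were found among the 61267 genes of the deposited count table. Every one of the 6 samples had received PMA (100 ng/ml, 48 h), a phorbol ester that gives THP-1 cells macrophage features. The labels put 3 samples in a group called NC and 3 in a group called KD and name no target for KD. The series title names METTL1, an RNA 7-methylguanosine methyltransferase, in acute inflammation. Whether the 3 samples of a group were separate cultures is not stated, and p-values therefore reflect a spread among samples that may be technical.

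Macroautophagy encloses cytoplasm in a double membrane, the autophagosome, and delivers it to the lysosome. The ULK kinase complex starts the process, a class III PI3-kinase complex marks the site with a lipid, and ATG9A, ATG2 and WIPI proteins bring in and shape the membrane. ATG7, ATG3, ATG10 and the ATG12-ATG5-ATG16L1 complex then attach LC3 and GABARAP proteins, the human relatives of yeast ATG8, to the membrane lipid. In macrophages the same machinery clears engulfed microbes and damaged organelles and restrains inflammasome activity.

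Total counts per library ran from 37628972 to 42970216. METTL1 held 596, 653 and 642 counts in NC and 567, 528 and 524 in KD, a log2 fold change of -0.10 (SE 0.076) that missed the threshold with TMM scaling (edgeR adjusted p = 0.216). METTL1 passed as lower with library sizes alone (-0.29, edgeR adjusted p = 0.00249) and on the leukocyte scale defined below (-1.30, edgeR adjusted p = 2.75e-14). Each direction below is that of the libraries labelled KD relative to those labelled NC. A list of 55 genes of leukocytes and macrophages was present in every library, with PTPRC, SPI1 and CD14 among them. Its summed level was 4592 to 4623 CPM (counts scaled to library size) in NC and 11040 to 11430 CPM in KD, and 53 of the 55 genes were higher in KD. A list of 18 genes of epithelial, neural and embryonic cells summed to 2929 to 3373 CPM in NC and 55.4 to 59.6 CPM in KD. With TMM 17 of the 18 were called lower in KD, against 40.3% of all tested genes, and none was at 0 in NC. Of these, LIN28B and ID4 had no count in KD, and NEFM, a neurofilament subunit, went from 1595 ± 198 CPM to 0.390 ± 0.0282 CPM (mean ± SD, n = 3 each). The part of these marker differences in the results below was not tested. They were seen in all 3 libraries of a group, so that a different mixture of cells in the samples labelled NC and KD cannot be told apart from the labelled condition, and this limits what every KD over NC value below means. In bulk RNA, fewer cells of a type and less RNA per cell cannot be told apart either.

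For this reason changes of the members are given on 2 scales. The first is TMM, which sets the bulk of all tested genes level between libraries. The second, called the leukocyte scale here, sets the 55 leukocyte genes level as a group, at a median log2 fold change of -0.016. Single genes of that list still differed there, from -1.06 to 0.59, with 20 called higher and 17 lower. The median log2 fold change (KD over NC) of all 21905 tested genes was -0.05 with TMM, -0.23 with library sizes alone and -1.24 on the leukocyte scale. Ratios between genes inside a library depend on none of these scales.

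Of the 36 members 23 were higher in KD and 7 lower on the TMM scale, and 6 did not pass (edgeR quasi-likelihood test, Benjamini-Hochberg adjusted p of at most 0.05 over all tested genes). Among all tested genes 36.2% were called higher and 40.3% lower, against 63.9% and 19.4% of the members, and 76.5% were called in either direction. All 36 passed the filter on low counts. Setting the leukocyte genes level left 1 member higher and 34 lower, beside 3.53% and 83.3% of all tested genes (86.8% in either direction). Scaling by library size gave 16 higher and 10 lower, beside 28.4% and 47.3% (75.7% in either direction). Of all calls, 47.3% were thus higher with TMM, 37.5% with library sizes alone and 4.07% on the leukocyte scale. The median member stood at 0.26 with TMM and at -0.93 on the leukocyte scale, which is 0.31 above the median of all tested genes on either scale. By that measure 27 members lay above the median gene and 9 below it under each of the 3 scalings. A change of scale shifts every gene by nearly the same amount, so this sameness was fixed in advance. On the TMM scale 5 members passed with a difference of at least 2-fold (MAP1LC3A, TFEB, WIPI1, ATG4C and ULK2), beside 35.5% of all tested genes. WIPI1 lay on this cut, at a log2 fold change of 1.001. It was below the cut with library sizes alone (0.81) and with TMM taken without genes averaging fewer than 10 counts in either group (0.95). With the leukocyte genes set level 15 members did so, beside 60.5% of all tested genes. No overlap in CPM between NC and KD was seen for 24 members with higher and 8 with lower values in KD, beside 36.7% and 41.3% of all tested genes.

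**Figure D1:**
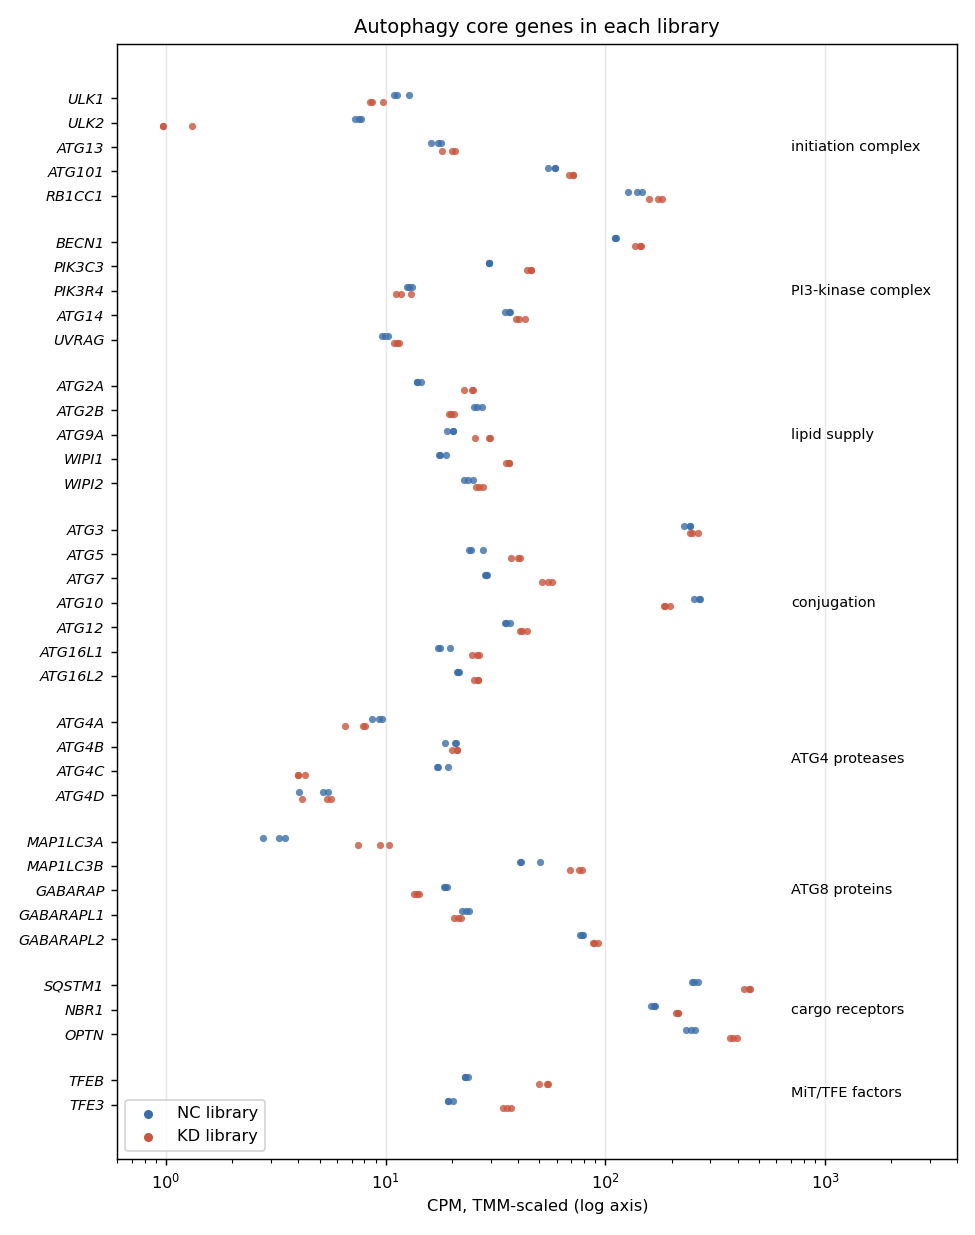
TMM-scaled CPM on a log axis of the 36 members in each of the 3 NC and 3 KD libraries, 1 point per library, grouped by role. ULK2 and ATG4C lie far lower in KD, while MAP1LC3A, TFEB and WIPI1 lie higher, of which TFEB and WIPI1 are below 0 on the leukocyte scale.

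**Figure D2:**
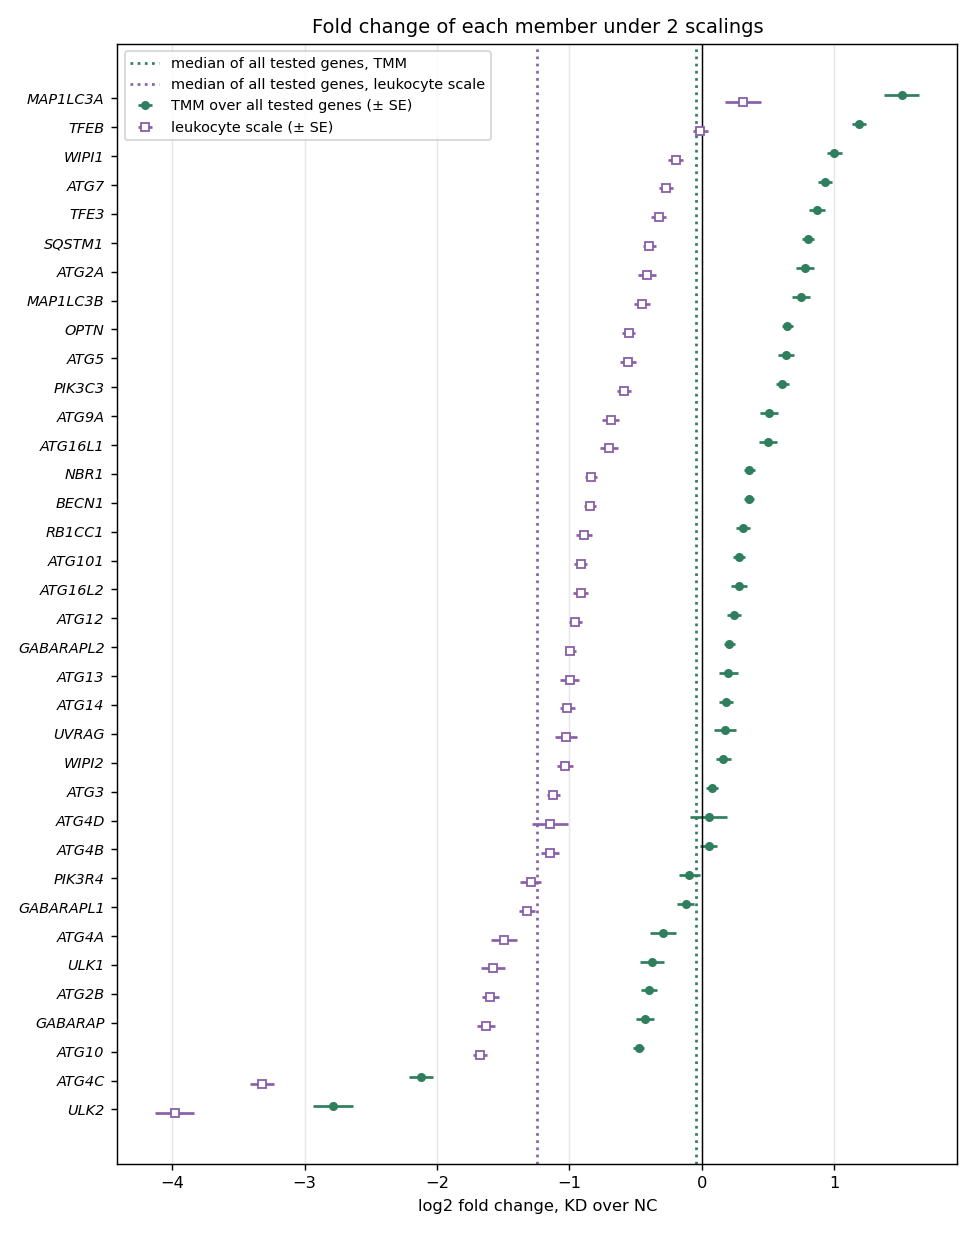
Log2 fold change, KD over NC, with its SE, of each member on the TMM scale and on the leukocyte scale, beside the median of all tested genes on each (dotted lines). Between the scales the members keep nearly the same spacing, and 26 of them change from above 0 to below 0.

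Promoter sequences from RefSeq (GRCh38.p14) were matched by symbol for 32 of the 36 members. TFEB and TFE3, members themselves, bind an E-box with the letters CACGTG in the genes of autophagy and lysosomes. This E-box was looked for on both strands in the 250 bases before each start, beside the GC box GGGCGG, which zinc finger factors of the SP family bind. An E-box was found at ATG3 and ATG14 only, 6.25% of the matched members, against 7.73% of all 27305 genes whose promoters were searched. Here a gene counts if any of its promoters matches, and the 32 members had 40 promoters. Over all 35116 single promoters the share was 6.34%. GC boxes were found for 24 of the 32 members, against 46.2% of all genes and 42.6% of single promoters. The members had all passed the filter on low counts, whereas the 27305 genes outnumber the 21905 tested genes. These shares therefore compare unlike sets, and a comparison among tested genes alone was not made. Flanked forms of the E-box (TCACGTGA, GTCACGTGAC, TCACGTGAC, GTCACGTGA and CACGTGAC), the AP-1 site TGACTCA and its extension TGACTCAGC were searched as well, on both strands. Of these, CACGTGAC, which holds the E-box, was found at ATG3 and ATG14 (2.66% of all genes), TGACTCA at TFE3 (5.19% of all genes), and the other 5 at no member (0.374% to 1.04% of all genes). The motifs and the promoters shown were chosen after the expression values were seen. Windows are shown for ATG3 and ATG14, which hold the E-box, and for ULK1 and ULK2, the related kinases whose ratio moved most. Capitals mark an E-box in ATG3 and ATG14 and GC boxes in ULK1. The windows run 5′ to 3′ and end at the base before the start, on the minus strand for ATG3 (30 bases, chr3:112561963-112561992), ATG14 (chr14:55411831-55412080) and ULK2 (chr17:19867937-19868186) and on the plus strand for ULK1 (chr12:131894372-131894621).
ATG3: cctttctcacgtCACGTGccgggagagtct
ATG14: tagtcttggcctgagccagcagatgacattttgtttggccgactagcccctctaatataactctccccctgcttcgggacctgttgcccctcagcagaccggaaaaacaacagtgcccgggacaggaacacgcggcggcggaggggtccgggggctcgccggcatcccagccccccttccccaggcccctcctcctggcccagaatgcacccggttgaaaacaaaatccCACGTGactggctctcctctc
ULK1: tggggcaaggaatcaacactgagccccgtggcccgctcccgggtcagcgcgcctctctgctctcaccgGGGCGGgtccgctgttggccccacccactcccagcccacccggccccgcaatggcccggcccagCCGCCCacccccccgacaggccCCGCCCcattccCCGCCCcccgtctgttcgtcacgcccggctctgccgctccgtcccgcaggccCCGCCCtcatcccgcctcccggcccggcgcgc
ULK2: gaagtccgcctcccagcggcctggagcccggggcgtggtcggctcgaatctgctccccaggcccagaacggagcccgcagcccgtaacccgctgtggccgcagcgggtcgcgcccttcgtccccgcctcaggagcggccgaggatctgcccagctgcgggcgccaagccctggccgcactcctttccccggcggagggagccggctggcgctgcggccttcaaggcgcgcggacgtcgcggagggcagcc
The E-box began 18 bases before the RefSeq start used for ATG3 and 21 bases before that of ATG14. In the deposited coordinates ATG3 reaches base 112562046, so its window lies inside the gene as it was counted. ATG14 was higher in KD on the TMM scale and ATG3 did not pass there, and both were lower on the leukocyte scale. ULK1 held 5 GC boxes in its window and ULK2 held none, with 78.0% and 76.0% of bases G or C. A match is a description of the letters in the window and not a bound site.

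Among the initiation genes the kinase ULK2 had the largest fall of all members. ULK2 (chromosome 17, 19770829 to 19867936, minus strand, GRCh38) held 324, 297 and 340 counts in the NC libraries and 38, 38 and 52 in the KD libraries. In CPM it was at 7.69, 7.25 and 7.53 in NC and 0.966, 0.970 and 1.32 in KD. Every NC library thus lay more than 5-fold above every KD library. The fall was 6.89-fold (log2 fold change -2.78, SE 0.15, edgeR adjusted p = 1.07e-14) with TMM and -3.98 on the log2 leukocyte scale. Its relative ULK1 (chromosome 12, 131894622 to 131923150) was at 11.3, 10.9 and 12.7 CPM in NC and 8.64, 8.52 and 9.73 CPM in KD. The groups did not overlap, at a log2 fold change of -0.38 (SE 0.090, edgeR adjusted p = 5.85e-04) with TMM, -0.56 with library sizes alone and -1.58 on the leukocyte scale. RB1CC1, the scaffold FIP200 of the same complex, was at 139, 127 and 147 CPM in NC and 180, 174 and 158 CPM in KD. Its log2 fold change was 0.31 (SE 0.053, edgeR adjusted p = 1.81e-05) with TMM and -0.89 on the leukocyte scale. ATG101 (0.28) and ATG13 (0.20), which stabilize and bridge the complex, were also higher on the TMM scale, and lower at -0.91 and -0.998 on the leukocyte scale. Neither passed with library sizes alone (ATG101 at 0.096, edgeR adjusted p = 0.0673, and ATG13 at 0.012, edgeR adjusted p = 0.892). ATG101 shares 19.2% of its exon bases with ENSG00000257663 on the other strand. ATG13 also no longer passed when NC replicate 3 (adjusted p = 0.0895) or KD replicate 2 (adjusted p = 0.0717) was left out.

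Counts per kilobase inside each library put ULK1 at 1.90, 1.95 and 2.19 times ULK2 in NC and at 11.6, 11.4 and 9.56 times in KD. This ratio rose 5.38-fold, the largest change of the 10 ratios of related members that were compared. For each of the 10 the NC and KD libraries did not overlap. In CPM 36.7% of all tested genes were higher and 41.3% lower in KD without overlap, and ratios of other gene pairs were not computed. The lack of overlap is therefore no trait shown for these pairs. Each of the 10 had an exact two-sided permutation p of 0.1, which is the smallest that 3 libraries against 3 can give (Benjamini-Hochberg adjusted p = 0.1). This permutation test thus cannot take any of the ratios past a threshold of 0.05.

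**Figure D3:**
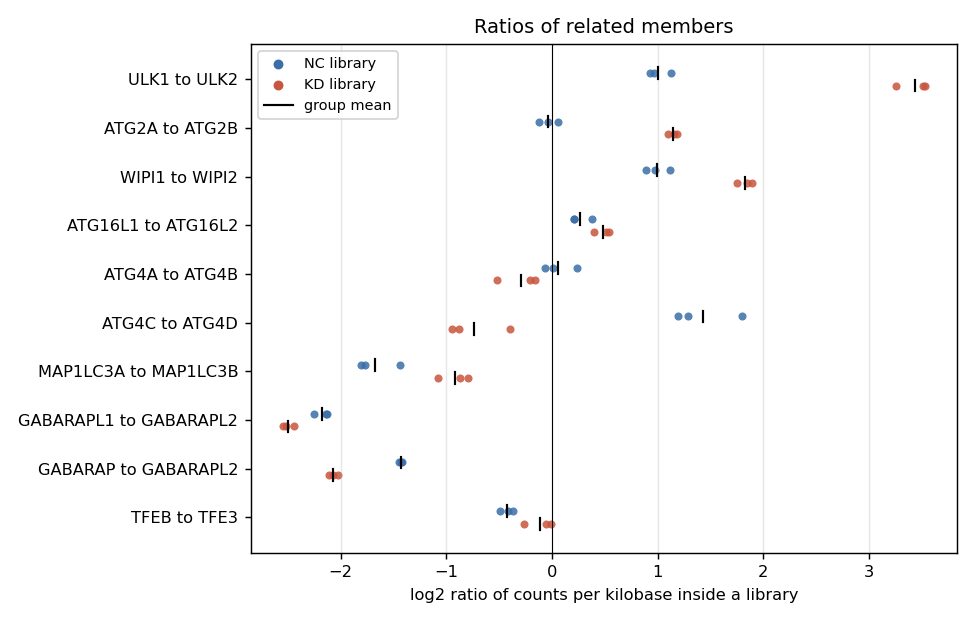
Log2 ratio of counts per kilobase of 2 related members inside each library, 1 point per library with the group mean as a black bar, for 10 pairs. No pair overlaps between NC and KD, where other gene pairs were not computed. ULK1 to ULK2 and ATG4C to ATG4D differ most, in opposite directions.

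The PI3-kinase complex genes were level or slightly higher with TMM. PIK3C3, the catalytic subunit VPS34, was at 29.7, 29.7 and 29.5 CPM in NC and 45.8, 43.7 and 46.1 CPM in KD. The groups were tight and well apart, with a 1.53-fold rise (log2 fold change 0.61, SE 0.050, edgeR adjusted p = 4.36e-11) that became -0.59 on the leukocyte scale. BECN1, the regulatory subunit beclin 1, went from 111 ± 0.858 CPM to 142 ± 4.55 CPM (mean ± SD, n = 3 each; 0.36 with TMM and -0.84 on the leukocyte scale). BECN1 shares 17.1% of its exon bases with genes on the other strand, among them PSME3 with a mean of 5653 counts against 5159 for BECN1, so its level is uncertain. ATG14, which directs the complex to autophagosome sites, went from 35.97 ± 0.932 CPM to 40.9 ± 2.02 CPM (mean ± SD, n = 3 each). Its log2 fold change of 0.18 passed with TMM but was -0.0033 with library sizes alone and -1.01 on the leukocyte scale, and 20.8% of its exon bases are shared with FBXO34 on the other strand. UVRAG, the alternative partner that serves endosomes, did not pass (log2 fold change 0.17, SE 0.082, edgeR adjusted p = 0.0591). PIK3R4, the pseudokinase subunit VPS15, did not pass either (-0.09, SE 0.081, edgeR adjusted p = 0.294), although it passed as lower with library sizes alone (-0.28). All 5 were lower on the leukocyte scale, as were 83.3% of all tested genes.

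Genes of membrane supply divided between close relatives. WIPI1, which reads the lipid made by the PI3-kinase, was at 17.5, 18.8 and 17.7 CPM in NC and 35.1, 36.3 and 36.4 CPM in KD. It was 2.00-fold higher (log2 fold change 1.00, SE 0.058, edgeR adjusted p = 4.55e-14) with TMM and at -0.20 on the leukocyte scale. WIPI2, which recruits ATG16L1, went from 23.8 ± 1.04 to 26.7 ± 0.90 CPM (mean ± SD, n = 3 each; log2 fold change 0.16), a call that was lost with library sizes alone (-0.02) and without NC replicate 2 (adjusted p = 0.0818). On the leukocyte scale WIPI2 was at -1.03. The WIPI1 to WIPI2 ratio of counts per kilobase was 1.85, 2.17 and 1.96 in NC and 3.36, 3.72 and 3.60 in KD. WIPI1 shares 28.1% of its exon bases with genes on the other strand, of which ENSG00000267009 held 8512 to 12913 counts, so its level is uncertain. ATG2A and ATG2B, the bridge-like proteins that carry lipid into the growing membrane, moved in opposite directions with TMM. ATG2A was at 13.9, 14.5 and 13.8 CPM in NC and 22.8, 24.8 and 25.0 CPM in KD, a log2 fold change of 0.78 (SE 0.067, edgeR adjusted p = 1.07e-10) and -0.42 on the leukocyte scale. ATG2B was at 26.1, 25.3 and 27.4 CPM in NC and 19.4, 19.9 and 20.5 CPM in KD, a log2 fold change of -0.40 (SE 0.061, edgeR adjusted p = 2.52e-06) and -1.60 on the leukocyte scale. Per kilobase the pair was level in NC, with ratios of 0.972, 1.04 and 0.921, whereas ATG2A was above ATG2B in KD by 2.14, 2.27 and 2.22 times. ATG9A, the scramblase carried on the seed vesicles, was at 0.51 with TMM and -0.69 on the leukocyte scale. It shares 38.8% of its exon bases with ENSG00000284820 on the same strand, and its level is uncertain.

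In the conjugation system ATG7 had the largest rise on the TMM scale. ATG7, the E1-like enzyme that activates both ubiquitin-like proteins, was at 28.6, 29.0 and 28.2 CPM in NC and 51.6, 57.0 and 54.9 CPM in KD. The groups lay far apart, at a 1.91-fold rise (log2 fold change 0.93, SE 0.051, edgeR adjusted p = 1.54e-14) with TMM and at -0.27 on the leukocyte scale. Its exons share 18.1% of their bases with VGLL4 on the other strand. ATG5 (0.64) and ATG16L1 (0.50), 2 parts of the complex that sets the site of lipidation, were higher with TMM and at -0.56 and -0.70 on the leukocyte scale. The ubiquitin-like ATG12 (0.24) and the ATG16L1 relative ATG16L2 (0.28) were higher with TMM but did not pass with library sizes alone, and were at -0.95 and -0.92 on the leukocyte scale. ATG16L2 shares 7.98% of its exon bases with FCHSD2 on the other strand. FCHSD2 held a mean of 1876 counts against 965.7 for ATG16L2, so the level of ATG16L2 is uncertain. ATG12 shares 2.09% of its exon bases with AP3S1 on the other strand. AP3S1 held a mean of 2005 counts against 1595 for ATG12, so the level of ATG12 is uncertain as well. ATG3, the E2-like enzyme for LC3, did not pass with TMM (0.08, SE 0.043, edgeR adjusted p = 0.0959). It passed without KD replicate 3 (adjusted p = 0.0406) and was lower with library sizes alone (-0.11) and on the leukocyte scale (-1.12).

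ATG10, the E2-like enzyme for ATG12, had the only fall of this group with TMM. It was at 266, 252 and 270 CPM in NC and 196, 184 and 186 CPM in KD (log2 fold change -0.48, SE 0.042, edgeR adjusted p = 1.94e-10; -1.68 on the leukocyte scale). ATG10 shares 374 of its 5445 exon bases with the ribosomal protein gene RPS23 on the other strand, and reads there cannot be assigned to either gene where strand was not used. RPS23 held 14506, 13436 and 15970 counts in NC and 10279, 9575 and 9645 in KD, and ATG10 held 0.751 to 0.772 times as many in every library. RPS23 had a log2 fold change of -0.45 (SE 0.043, edgeR adjusted p = 7.98e-10), close to that of ATG10. The ATG10 level, and its place as the member with the most counts per kilobase in NC, are therefore uncertain.

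The ATG4 cysteine proteases trim LC3 and GABARAP before lipidation and release them afterwards. None of the 4 was called higher on any of the 3 scalings. Of all tested genes 36.2% were called higher with TMM, 28.4% with library sizes alone and 3.53% on the leukocyte scale. ATG4C (chromosome 1, 62784132 to 62865516) was at 17.3, 17.1 and 19.2 CPM in NC and 4.29, 4.006 and 4.003 CPM in KD. Its fall of 4.35-fold was the second largest of the members (log2 fold change -2.12, SE 0.092, edgeR adjusted p = 1.18e-16; -3.32 on the leukocyte scale). ATG4A was at 9.63, 9.27 and 8.70 CPM in NC and 8.08, 7.91 and 6.51 CPM in KD, a log2 fold change of -0.29 (SE 0.10, edgeR adjusted p = 0.0103) that did not pass without KD replicate 3 (adjusted p = 0.0936) and was -1.49 on the leukocyte scale. ATG4B, the most active family member, and ATG4D did not pass (both 0.05, edgeR adjusted p = 0.481 and 0.738). Each was below 0 with library sizes alone and on the leukocyte scale. By counts per kilobase ATG4C made up 40.8% ± 2.79 of the family in NC and 14.3% ± 0.721 in KD (mean ± SD, n = 3 each). ATG4B rose to the first place, from 21.5% ± 1.23 to 33.9% ± 1.48 of the family. In NC replicate 3, where ATG4D had 182 counts, the fewest in NC, the ATG4C to ATG4D ratio was 3.48, against 2.44 and 2.29 in the other NC libraries and 0.758, 0.541 and 0.520 in KD. ATG4D shares 14.7% of its exon bases with KRI1 on the other strand, which makes its level uncertain.

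The ATG8 proteins coat the autophagosome and hold its cargo receptors. MAP1LC3A had the largest rise of all members and was the only member that passed as higher on the leukocyte scale. MAP1LC3A (chromosome 20, 34546854 to 34560345) held 116, 134 and 158 counts in NC and 293, 370 and 407 in KD. In CPM it was at 2.75, 3.27 and 3.50 in NC and 7.45, 9.44 and 10.3 in KD, so that the lowest KD library was more than 2-fold above the highest NC library. The rise was 2.85-fold (log2 fold change 1.51, SE 0.13, edgeR adjusted p = 1.38e-10) with TMM and 0.31 on the log2 leukocyte scale (edgeR adjusted p = 0.0331). That lies inside the range of the leukocyte genes themselves on this scale, -1.06 to 0.59. MAP1LC3B, the commonly used autophagosome marker, was at 41.0, 50.1 and 41.5 CPM in NC and 68.8, 75.5 and 78.4 CPM in KD (log2 fold change 0.75, SE 0.069, edgeR adjusted p = 3.60e-08; -0.45 on the leukocyte scale). Its near-identical copy MAP1LC3B2 held at most 28 counts in any library.

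The GABARAP branch acts later, in autophagosome closure and fusion, and with TMM 1 of its 3 members was lower, 1 higher and 1 did not pass. GABARAP was at 18.6, 19.0 and 18.5 CPM in NC and 13.5, 13.9 and 14.2 CPM in KD (log2 fold change -0.43, SE 0.069, edgeR adjusted p = 4.18e-06; -1.63 on the leukocyte scale). Exons of other genes cover 48.2% of its exon bases. One of them, ENSG00000262526 on the same strand, had 1 count for every 1.19 to 1.28 of GABARAP in each library and a log2 fold change of -0.41, so the GABARAP level is uncertain. GABARAPL1 did not pass with TMM (-0.12, SE 0.062, edgeR adjusted p = 0.0793) but was lower with library sizes alone (-0.31) and on the leukocyte scale (-1.32), and passed as lower without NC replicate 2 (adjusted p = 0.0468). GABARAPL2 was at 0.21 with TMM, where it passed, at 0.02 with library sizes alone, where it did not, and at -0.99 on the leukocyte scale. By counts per kilobase GABARAPL2 was the largest part of the family in every library, at 48.3% to 49.96% in NC and 44.3% to 47.5% in KD. MAP1LC3A grew from 5.23% ± 0.622 to 12.1% ± 1.43 of the family and MAP1LC3B from 16.6% ± 1.49 to 22.7% ± 0.493, while GABARAP went from 18.2% ± 0.196 to 10.97% ± 0.288 (mean ± SD, n = 3 each). For each of the 5 the shares did not overlap between the groups. In CPM 36.7% of all tested genes were higher and 41.3% lower in KD without overlap. MAP1LC3A stood at 0.285 to 0.369 times MAP1LC3B in NC and at 0.473 to 0.575 times in KD.

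**Figure D4:**
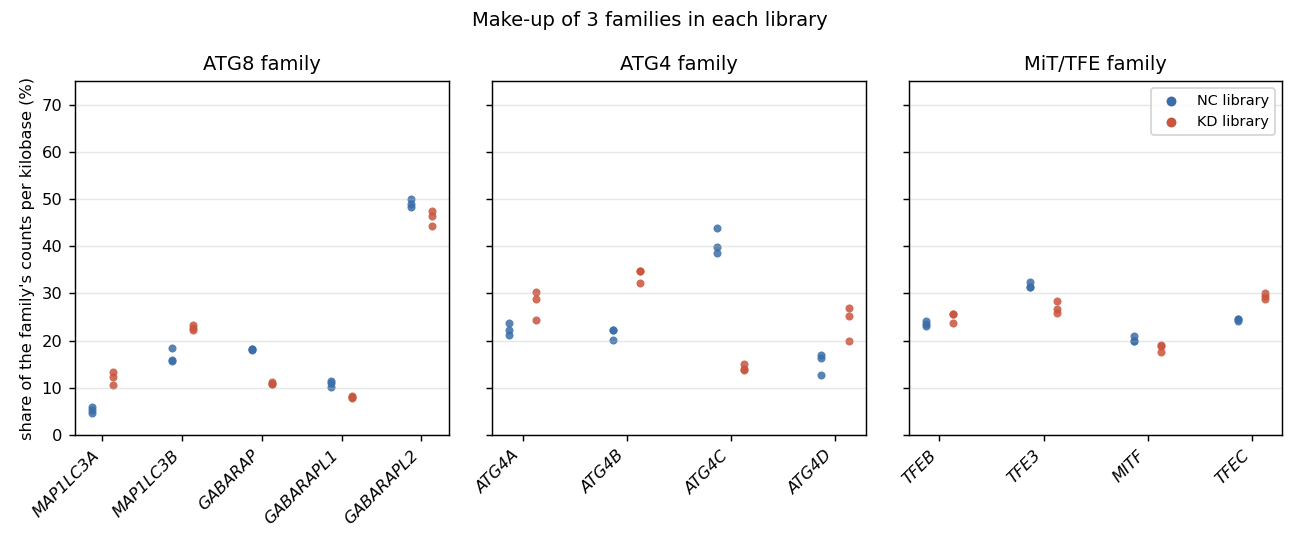
Share of each gene in the counts per kilobase of its family (percent), 1 point per library, for the ATG8, ATG4 and MiT/TFE families. LC3 genes take a larger part of the ATG8 family in KD, ATG4C a smaller part of the ATG4 family, and the MiT/TFE shares move by at most 5.05 percentage points.

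Cargo receptors link ubiquitin-tagged material to LC3. TMM and library sizes alone put all 3 higher in KD, beside 36.2% and 28.4% of all tested genes. The leukocyte scale put them lower, as it did 83.3% of all tested genes. SQSTM1 (p62) was at 248, 264 and 252 CPM in NC and 427, 449 and 456 CPM in KD, a 1.75-fold rise (log2 fold change 0.80, SE 0.043, edgeR adjusted p = 7.51e-15) that became -0.39 on the leukocyte scale. OPTN (optineurin), a receptor for bacteria and mitochondria, was at 244, 233 and 255 CPM in NC and 396, 381 and 370 CPM in KD (0.65, SE 0.044, edgeR adjusted p = 9.65e-13; -0.55 on the leukocyte scale). NBR1, which binds p62, showed a smaller difference, from 165.5 ± 3.25 to 212.5 ± 2.03 CPM (mean ± SD, n = 3 each; 0.36 with TMM and -0.84 on the leukocyte scale). Per kilobase OPTN was first and SQSTM1 second of the 36 members in KD, at 74.4 ± 2.60 and 58.9 ± 2.00 CPM per kilobase (mean ± SD, n = 3 each). ULK2 was last in both groups, at 0.759 ± 0.0226 in NC and 0.110 ± 0.0205 in KD on the same scale. SQSTM1 shares 1582 exon bases with MRNIP on the other strand, but MRNIP held 1695 to 1965 counts in every library, against 10442 or more for SQSTM1.

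TFEB and TFE3, the MiT/TFE transcription factors that switch on lysosome and autophagy genes when they enter the nucleus, were both higher with TMM. TFEB was at 23.0, 23.0 and 23.6 CPM in NC and 54.7, 54.3 and 49.6 CPM in KD. This was a 2.28-fold rise with wide separation (log2 fold change 1.19, SE 0.053, edgeR adjusted p = 2.73e-16). On the leukocyte scale TFEB was at -0.0094 and did not pass (edgeR adjusted p = 0.879). TFE3 was at 20.3, 19.2 and 19.1 CPM in NC and 35.7, 34.2 and 37.2 CPM in KD (0.87, SE 0.058, edgeR adjusted p = 8.25e-13; -0.33 on the leukocyte scale). MAP1LC3A and TFEB were the 2 members above the median of the leukocyte list, which was 1.18 with TMM. The myeloid relative TFEC rose on both scales (1.38 with TMM, 0.18 on the leukocyte scale). By counts per kilobase TFEB made up 23.6% ± 0.611 of the family of TFEB, TFE3, MITF and TFEC in NC and 25.0% ± 1.17 in KD (mean ± SD, n = 3 each), shares that overlapped. TFE3 went from 31.7% ± 0.601 to 27.0% ± 1.21 and TFEC from 24.4% ± 0.277 to 29.5% ± 0.605, without overlap. The transcript level does not show where these factors were in the cell.

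Genes that act beside the core were taken from 4 lists. Of 22 tested genes among 24 other early autophagy genes, 12 were higher and 4 lower with TMM, while the leukocyte scale gave 0 higher and 20 lower, with a median log2 fold change of 0.18 with TMM against -0.05 over all tested genes. For these 4 lists the shares of all tested genes to compare are 36.2% higher and 40.3% lower with TMM, and 3.53% and 83.3% on the leukocyte scale. The largest rises with TMM were RUBCNL (1.19, and -0.01 on the leukocyte scale), a relative of Rubicon, and the tether EPG5 (1.03 and -0.17). The largest fall was that of the weakly expressed ATG9B (-1.88 and -3.065), from 0.603 ± 0.0878 CPM in NC to 0.161 ± 0.053 CPM in KD. Next came the kinase ULK3, from 15.03 ± 0.809 to 7.54 ± 0.649 CPM (-0.99 and -2.19), and WDR41 (-0.52 and -1.72), a partner of C9orf72 (mean ± SD, n = 3 each). Other cargo receptors had 16 higher and 3 lower of 22 with TMM (median 0.60), while the leukocyte scale gave 0 and 22, beside the shares of all genes just given. That list also holds the kinases PINK1 and TBK1 and the adaptor KEAP1, which are not receptors. Each of them was among the 16 (0.46, 0.79 and 0.72 with TMM). BNIP3L (1.06, and -0.14 on the leukocyte scale), a mitophagy receptor, and WDFY3 (1.02 and -0.18), an adaptor for aggregates, had the largest rises with TMM.

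FUNDC1, a mitophagy receptor of the outer mitochondrial membrane, was nearly absent from KD. It held 930, 1031 and 1087 counts in NC and 4, 0 and 2 in KD. The inner-membrane receptor PHB2 fell from 51.8 ± 0.939 to 19.4 ± 1.78 CPM (mean ± SD, n = 3 each; -1.41 with TMM and -2.61 on the leukocyte scale). PRKAA2, a catalytic subunit of the energy sensor AMPK, showed a loss like that of FUNDC1, with 1095, 1095 and 1280 counts in NC and 4, 6 and 0 in KD. For these 2 genes the KD libraries held almost no signal, as for LIN28B and ID4 of the non-haematopoietic list.

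Autophagosome fusion genes had 13 higher and 4 lower of 17 with TMM (median 0.44), while the leukocyte scale gave 0 and 16, where 83.3% of all tested genes were lower. RILP (1.25, and 0.05 on the leukocyte scale), which links late endosomes to dynein, and PLEKHM1 (1.02 and -0.18), an adaptor for LC3 and the HOPS tether, rose most with TMM. STX17, the autophagosomal SNARE, went from 18.4 ± 0.174 to 9.86 ± 0.871 CPM, and VPS33A, a HOPS subunit, from 46.3 ± 1.45 to 25.2 ± 1.93 CPM (mean ± SD, n = 3 each). Both were lower on each scale, at -2.10 and -2.08 on the leukocyte scale. The mTORC1 and AMPK control genes had 21 higher and 12 lower of 37 with TMM (median 0.19), while the leukocyte scale gave 1 and 35, where 83.3% of all tested genes were lower, and library sizes alone gave 12 higher, where 28.4% of all tested genes were higher. The largest rises with TMM were TFEC, a transcription factor placed on this list and given above, and FNIP2 (1.19, and -0.0088 on the leukocyte scale), a partner of folliculin. Beside PRKAA2 the largest fall was that of the stress-induced SESN2, from 30.9 ± 1.01 to 11.8 ± 0.872 CPM (mean ± SD, n = 3 each; -1.38 with TMM and -2.58 on the leukocyte scale).

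**Figure D5:**
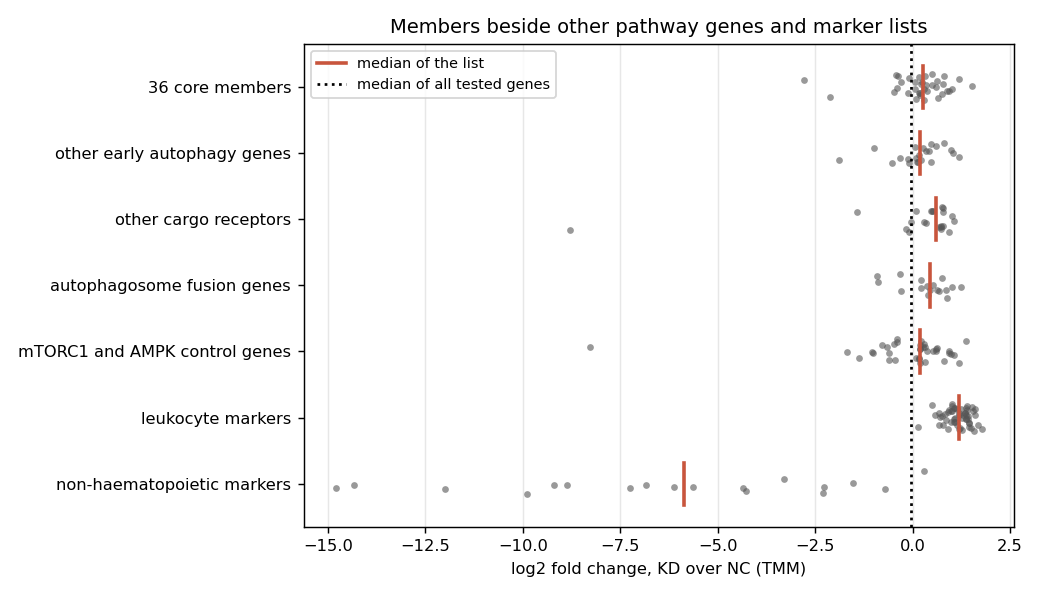
Log2 fold change, KD over NC, on the TMM scale for the 36 members, 4 lists of other pathway genes and 2 marker lists, 1 point per tested gene, with each list's median (red bar) and the median of all tested genes (dotted line). Leukocyte markers lie to the right at a median of 1.18, non-haematopoietic markers far to the left, and the members between them at a median of 0.26, which turns to -0.93 on the leukocyte scale.

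Members can share reads with genes that overlap them. Exons of another gene covered at least 1 base of 20 members and at least 10% of the exon bases of 9. Without those 9 and ATG10, 26 members remained, of which 16 were higher and 5 lower with TMM, at a median log2 fold change of 0.23, beside 36.2% and 40.3% of all tested genes. ATG12 and ATG16L2, whose levels are uncertain, are still among the 26. ULK2, ATG4C, MAP1LC3A, ATG2A and ATG2B share no exon base with another gene of the table.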

How the data were processed

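RNA of 6 THP-1 samples, 3 labelled NC and 3 labelled KD, was sequenced on a DNBSEQ-T7 instrument, per the labels' protocols. Per the submitters' processing notes, the authors used fastp 0.23.0 and the genome GRCh38. Aligner, counter, annotation and strand setting: not given in the sources used here. Values as deposited are whole-number counts per gene, not normalized, with an exon length (another column of the deposited table, in bases) that equals the union of the exons for all 36 members. Depth was 37628972 to 42970216 counts. Between 67.8% and 70.3% of counts from 1 to 20 were even, against 50.2% to 51.4% above 1000, and the cause was not tested. Libraries of a group differed by more than sampling noise (chi-square over its degrees of freedom, 3.24 to 6.46).

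Computed here were edgeR 4.0.16 quasi-likelihood tests (R 4.3.3, robust, TMM, filterByExpr, 21905 genes, Benjamini-Hochberg, two-sided, threshold 0.05). Each SE was taken as log2 fold change over root F. CPM is the count over the TMM-scaled library size. The leukocyte scale takes TMM factors over 55 listed genes. Ratios and shares use counts per kilobase. Alternatives used DESeq2 1.42.0 and limma 3.58.1. The edgeR steps were tested on simulated data. Tables and plots used Python 3.11.15, pandas 2.3.3 and matplotlib 3.10.9. The members, lists and tests were chosen with earlier results of these data known. All members are named. Library values are given for the largest rise and fall of each role and for described pairs, and in other lists the 2 largest rises and falls with at least 5 CPM are named.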

Additional observations from a re-analysis of the deposited data

How the results depend on the processing

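Scaling decided most directions. On the leukocyte scale 1 member was higher and 34 lower (all tested genes: 773 and 18239). Other lists there had 0 higher and 20 lower (other early genes), 0 and 22 (other cargo receptors), 0 and 16 (fusion genes) and 1 and 35 (mTORC1 and AMPK genes). With library sizes alone 5 other cargo receptors were lower and 12 mTORC1 and AMPK genes higher. The median of the members was 0.076 with library sizes alone, -0.93 on the leukocyte scale and 0.21 with TMM taken without genes averaging fewer than 10 counts in either group. That last setting called 21 members higher and 8 lower, with ATG13 (adjusted p = 0.0613) and WIPI2 (adjusted p = 0.0842) lost and GABARAPL1 gained as lower (adjusted p = 0.0162). Members that changed sign on the leukocyte scale were ATG2A (-0.42), ATG3 (-1.12), ATG4B (-1.15), ATG4D (-1.14), ATG5 (-0.56), ATG7 (-0.27), ATG9A (-0.69), ATG12 (-0.95), ATG13 (-0.998), ATG14 (-1.01), ATG16L1 (-0.70), ATG16L2 (-0.92), ATG101 (-0.91), RB1CC1 (-0.89), BECN1 (-0.84), PIK3C3 (-0.59), UVRAG (-1.03), WIPI1 (-0.20), WIPI2 (-1.03), MAP1LC3B (-0.45), GABARAPL2 (-0.99), SQSTM1 (-0.39), NBR1 (-0.84), OPTN (-0.55), TFEB (-0.0094) and TFE3 (-0.33). With library sizes alone ATG3 (-0.11), ATG4B (-0.14), ATG4D (-0.13), ATG14 (-0.0033), UVRAG (-0.014) and WIPI2 (-0.023) changed sign. Leaving out a library gave ATG4B -0.0067 (without NC replicate 1) to 0.083 (without KD replicate 2), and ATG4D -0.073 (without NC replicate 3) to 0.18 (without KD replicate 1), with -0.024 without KD replicate 3. With 5 counts added, the ULK1 to ULK2 log2 ratio differed by 2.29 in place of 2.43. Leaving out each library gave 22 to 24 members higher and 6 to 8 lower. DESeq2 size factors, the DESeq2 test, limma-voom, no filter and halved counts changed no call among the 36 members. Whether the numbers 1 to 3 pair the samples is not stated. Deviations of same-numbered samples correlated at -0.0138 to 0.0153 and those of differently numbered samples at -0.0344 to 0.0286. Values this close to each other cannot decide it. A fit with the replicate block called 23 members higher and 7 lower. The count without overlapping members was chosen after seeing the data.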
